A study of Mus musculus with 2 samples.

Results

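Spliced antisense transcripts without annotation are transcript models with at least 2 exons that lie opposite an annotated gene and are absent from the annotation. They were taken as every model of the Antisense class with more than 1 exon in either library of a long-read RNA sequencing study of the mouse adrenal gland. Replicate 1 held 327 of them with 613 reads, out of 62971 endogenous models and 452437 endogenous reads. Replicate 2 held 382 with 774 reads, out of 67032 models and 463102 reads. Matched by chromosome, strand and intron chain, they came to 656 distinct structures at 629 loci with 1387 reads. The study has 1 group of 2 libraries, made from adrenal gland tissue taken at 36 days of age from male mice of the strain B6CASTF1/J, a cross between C57BL/6J and CAST/EiJ, with no treatment in the labels. The labels disagree on whether both libraries came from the same animal, so the spread between them may be technical. No condition was compared. Values are reads or CPM, the count scaled to a fixed total of endogenous reads, and a single read equals 2.21 CPM in replicate 1 and 2.16 in replicate 2.

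Antisense transcripts are made from the DNA strand opposite a gene, often from a start near the gene's own promoter or past its end, and some are spliced with their own introns. An intron begins with GT and ends with AG on the strand that is transcribed in nearly all cases, and the same bases read on the opposite strand begin with CT and end with AC. An antisense intron whose start and end are those of an annotated intron of the gene is called mirrored here, and a structure is called mirrored when this holds for every one of its introns.

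The sequences below show the intron ends of a mirrored structure and of structures that were not mirrored. No genome sequence was used, so bases could be read only inside annotated exons and promoter windows, and 73 of 946 distinct introns had both ends readable. At Nr2f2, which encodes a nuclear receptor, a mirrored structure of 3 exons (chr7:70353993-70360593, mm10, plus strand) had 2 introns whose end bases lie inside annotated exons. Each line gives 10 bases of exon and 10 of intron on the antisense strand, 5′ to 3′, with the outermost 2 intron bases in capitals.
Nr2f2 antisense, start of intron 1: ccacaggcatCTggaagaaa
Nr2f2 antisense, end of intron 1: tccttcctACctgaggtgaa
Nr2f2 antisense, start of intron 2: ctctgtacagCTgcaggagg
Nr2f2 antisense, end of intron 2: aggccgatACcttcccgtct
Both introns read CT and AC on the strand given to the structure, as the opposite strand of a GT and AG intron does. The structure opposite Ppp2r3d (chr9:124423234-124424154, plus strand), a gene named as a regulatory subunit of protein phosphatase, and the one opposite Tnpo2 (chr8:85036915-85038489, minus strand), a nuclear import receptor gene, were not mirrored and read GT and AG.
Ppp2r3d antisense, start of intron: ctcgagcaggGTagggcccg
Ppp2r3d antisense, end of intron: tttacggcAGgaagtccctc
Tnpo2 antisense, start of intron: ggagttctgtGTgagaccca
Tnpo2 antisense, end of intron: cacctaccAGgccccgggag
The Tnpo2 antisense intron lay 3 and 4 bases from the ends of an annotated Tnpo2 intron. Exon joins of 5 leading mirrored structures follow, with 15 bases of each exon and the 2 bases on each side of the join in capitals. Each joins the exons on both sides of an annotated intron of the gene, read from the other strand.
Mbnl1 antisense join: tctggagcaacgaCCTTtcagtgaatcaaa
B2m antisense join: gaatttgaggggtTTTCtggatagcataca
Crebbp antisense join: acaatgatccaaaATCTgtgttgtcattcg
Bcl2l1 antisense join: agccaagataaggTTATtcaaatctatctc
Igf1r antisense join: tgccgggcccacaGATTtctccactcgtcg
The bases come from GENCODE M21 transcripts and, for the 2 intron ends that read AG, from RefSeq promoter windows on GRCm38.p6.

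Spliced structures took 3.93% of Antisense class reads in replicate 1 (Wilson 95% interval 3.64 to 4.25%) and 3.30% in replicate 2 (3.08 to 3.54%), a mean of 3.62 ± 0.446% (SD, n = 2). The rest of the class was single-exon, with 6860 models in replicate 1 and 9308 in replicate 2. Spliced structures came to 0.136% of all endogenous reads in replicate 1 and 0.167% in replicate 2. Most were small: 475 of the 656 structures (72.4%) had 2 exons, 115 had 3 and 43 had 4. The median model length was 1094.5 bases. A single read supported 547 structures (83.4%), and 17 structures with at least 10 reads held 564 of the 1387 reads (40.7%). Intervals here cover counting error only, since reads made without molecular identifiers may be copies of 1 molecule.

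Few structures recurred between the libraries, and recurrence rose with read number. Reads of the Antisense class stood in both libraries for 53 of 656 structures (8.08%, 6.23 to 10.4%), against 8.31% of 17456 NNC chains, which have at least 1 unannotated splice site, and 16.5% of 14873 NIC chains, which join annotated sites in a new way. With 2 to 4 reads summed, 31 of 77 structures (40.3%) were in both libraries, against 48.0% of NNC and 52.2% of NIC chains. With 10 reads or more, 13 of 17 structures were in both (76.5%, 52.7 to 90.4%), against 85.1% of NNC and 91.2% of NIC chains. The chains of the other 4, at Igf1r, Gm7247, Colca2 and Mc2r, stood in the other library under another class, so all 17 were in both by chain, and 40 of the 77 with 2 to 4 reads (51.9%). NNC and NIC chains were counted within their class only. In all, 27 structures had the same intron chain in the other library under another class only, 10 of them as NNC and 10 as Genomic. Unannotated antisense genes also held 95 spliced models of other classes with 229 reads in replicate 1, and 100 with 209 reads in replicate 2. Of the annotated genes opposite the structures of replicate 1, 26.6% (85 of 319) also stood opposite one in replicate 2, and of those of replicate 2, 22.9% (85 of 371) stood opposite one in replicate 1.

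**Figure D1:**
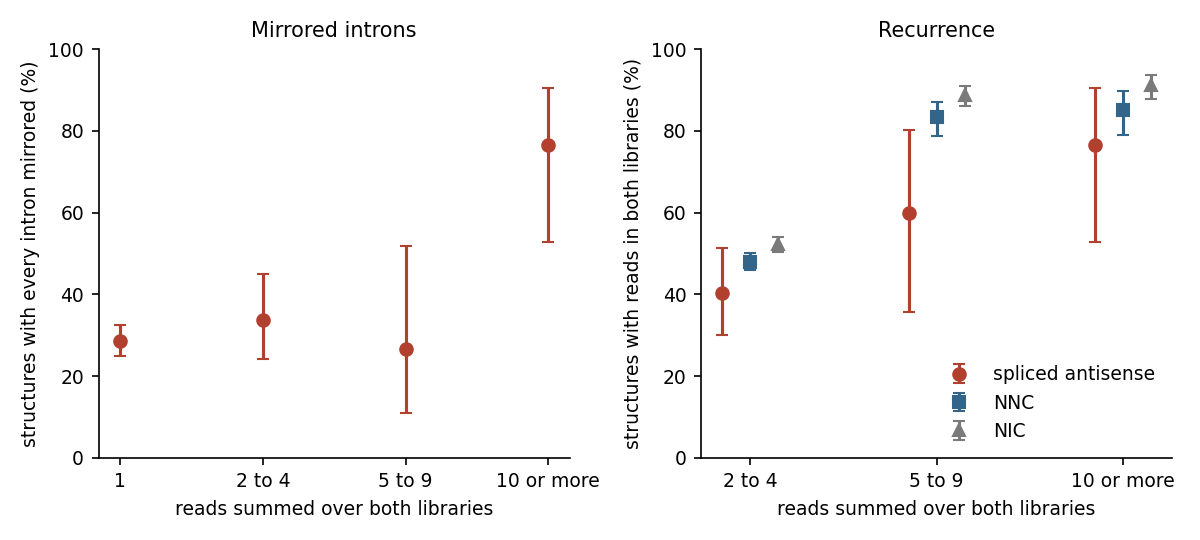
Left, percent of spliced antisense structures with every intron mirrored, by reads summed over both libraries; right, percent with reads of their own class in both libraries for spliced antisense, NNC and NIC structures. Points are percentages and bars Wilson 95% intervals; 76.5% of structures with 10 reads or more were mirrored, against 28.5% of those with 1 read.

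Mirrored introns were the leading feature of the structures with many reads. Of the 946 distinct introns, 270 (28.5%, 25.8 to 31.5%) had the start and end of an annotated intron on the opposite strand, 34.0% in replicate 1 and 26.4% in replicate 2. Every intron was mirrored in 199 structures (30.3%), which held 749 reads (54.0%), and none was mirrored in 444 structures, called unmirrored, which held 625 reads (45.1%). The remaining 13 structures, with 1 read each, mixed both kinds. The mirrored share was 28.5% among structures with 1 read, 33.8% with 2 to 4, 26.7% with 5 to 9 and 76.5% with 10 or more. Among NNC introns unannotated on their own strand, 14 of 20208 (0.0693%) repeated an annotated intron of the opposite strand, and among those of NIC models 21 of 4849 (0.433%). NNC and NIC models include some in unannotated antisense genes, such as the chain opposite Igf1r filed as NIC in replicate 1. The others lie in genes of their own strand. How many NNC and NIC introns have an annotated intron opposite was not counted.

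Most readable introns that were not mirrored had GT and AG ends on the strand given to the structure. Of 48, 38 read GT and AG (79.2%, 65.7 to 88.3%), 7 read GC and AG, 2 read GT and AT, and 1, at Nkapd1, read CT and AC. The share differed between the libraries, at 11 of 19 in replicate 1 (57.9%) and 31 of 34 in replicate 2 (91.2%). All 25 readable mirrored introns read CT and AC, which their shared positions with annotated introns largely fix, so their ends are a description only. Over both kinds, 52.1% of the 73 readable introns had GT and AG, a share that depends on how many were mirrored. Mirrored introns were 47.2% of the readable ones in replicate 1 and 24.4% in replicate 2. GT and AG stood at 92.9% of 4620 readable unannotated NNC introns and 96.2% of 738 NIC introns. These readable introns are those with both ends inside annotated exons or promoter windows, which is 9.26% of the mirrored and 7.10% of the other introns.

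The 12 loci with the most reads held 523 reads (37.7% of all), and mirrored structures led 11 of them. Gtf2a1, Lyrm4, Tshz1 and Colca2 tied at 15 reads for the last places and were taken in alphabetical order of chromosome names, which left out Colca2, whose structure was not mirrored. With it, mirrored structures led 11 of 13. At 6 of the 12, and 7 of the 13, the Antisense class reads, summed over both libraries, outnumbered all reads of the gene opposite. Ranking loci by antisense reads favours such an excess. Mc2r, the corticotropin receptor through which the pituitary drives adrenal steroid synthesis, had the most. Its main antisense structure (chr18:68407787-68429320, mm10, plus strand) had 3 exons and 62 reads in replicate 1 and 88 in replicate 2. A second structure of 2 exons (chr18:68407568-68429320) had 12 reads in replicate 1 and, filed as Genomic, 9 in replicate 2. The locus came to 177 ± 18.7 CPM of Antisense class reads, against 77.5 ± 0.267 CPM for Mc2r over all classes (SD, n = 2). Antisense class reads were thus 69.5% of these reads of both strands (63.3 to 75.1%). Further antisense reads filed under other classes, 10 of them Genomic in replicate 2, were not counted in these values. Antisense class reads were above Mc2r reads in each library, at 74 against 35 in replicate 1 and 88 against 36 in replicate 2. In whole-gland RNA, more cells with a transcript and more of it per cell cannot be told apart.

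**Figure D2:**
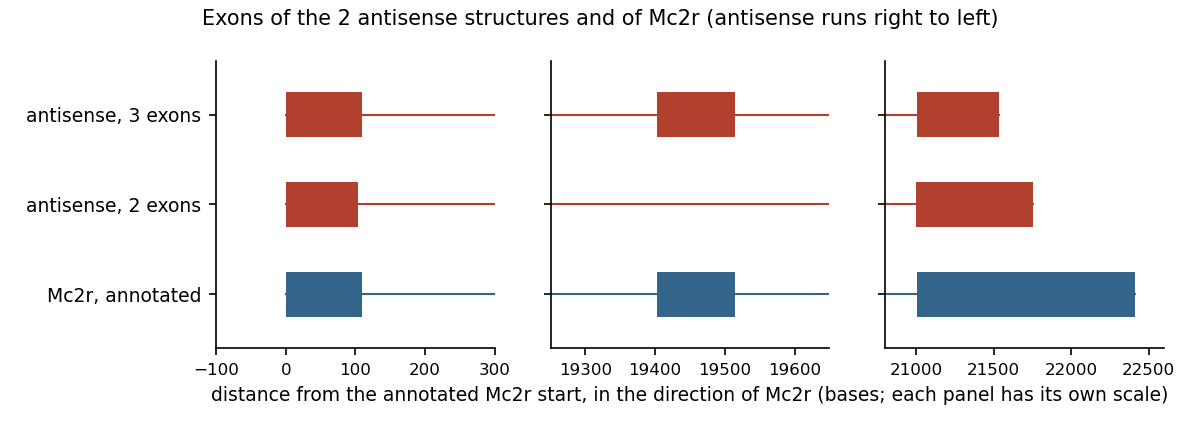
Exons (boxes) and introns (lines) of both antisense structures at Mc2r above the annotated Mc2r transcript, by distance from its annotated start in bases, in 3 panels with scales of their own. The 3-exon structure shares all 4 splice positions with Mc2r; the 2-exon structure skips the 112-base middle exon and its sites lie a few bases away.

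Mbnl1, which encodes a regulator of alternative splicing, came second. Its mirrored structure of 2 exons (chr3:60529549-60595749, minus strand) had 29 reads in replicate 1 and 58 in replicate 2, against 27 and 31 reads of Mbnl1. Through the mirrored intron itself the strands differed more, with 29 and 58 antisense reads against 0 and 3 on the strand of Mbnl1.

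Crebbp, the gene of the CBP histone acetyltransferase, had the structure with the most exons among those seen in both libraries. It had 6 exons (chr16:4128444-4213997, plus strand), 5 mirrored introns, and 24 reads in replicate 1 and 12 in replicate 2, against 2 and 4 reads of Crebbp. Incomplete versions filed as ISM added 18 and 12 antisense reads. The first Crebbp intron was crossed by 42 and 26 antisense reads, and none of the 5 introns was crossed by a read on the strand of Crebbp in either library. None of the 2 and 4 Crebbp reads was a full match to an annotated transcript or of the NIC or NNC class. The absence of gene-strand passages thus rests on few reads.

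Igf1r, the receptor of insulin-like growth factor, had a mirrored structure of 2 exons (chr7:67952827-68004355, minus strand) with 0 Antisense class reads in replicate 1 and 31 in replicate 2. The same chain had 37 reads in replicate 1 under the NIC class, so both libraries held it. Reads of Igf1r were 8 in each library. Gtf2a1, which encodes a subunit of the general factor TFIIA, had a mirrored structure of 3 exons (chr12:91575584-91589639, plus strand) with 2 and 13 reads, against 1 and 1 of the gene. Neither Gtf2a1 read was a full match to an annotated transcript or of the NIC or NNC class. Tshz1, a zinc finger gene, had 7 and 8 antisense reads (chr18:84013478-84086404, plus strand) against 3 and 4 of the gene. All 3 loci had more antisense than gene reads in replicate 2.

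Genes with higher levels of their own made up most of the rest. Nr2f2 had 18 antisense reads in replicate 1 and 10 in replicate 2, against 16 and 16 of the gene. Bcl2l1, a gene of cell survival, had 20 and 16 (chr2:152827336-152830618, plus strand), against 38 and 32. Tspan12, a tetraspanin gene, had 8 and 19 (chr6:21847857-21852169, plus strand), against 49 and 38. B2m, the light chain of MHC class I molecules, had 14 and 29 (chr2:122147686-122151151, minus strand), against 229 and 214, and its antisense structure also overlapped Patl2 on its own strand. Lyrm4, a gene of iron-sulfur cluster assembly, had 6 and 9 (chr13:36089854-36117526, plus strand), against 18 and 31, and overlapped Fars2 likewise. In each of these 4 genes after Nr2f2 the antisense reads were below the gene's in both libraries, and the antisense share of both strands ran between 8.85% at B2m and 34.0% at Bcl2l1. Through the mirrored intron alone, Bcl2l1 had 20 and 16 antisense reads against 14 and 8 on the gene's strand. Tspan12, B2m and Lyrm4 had fewer antisense than gene-strand reads there in both libraries.

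**Figure D3:**
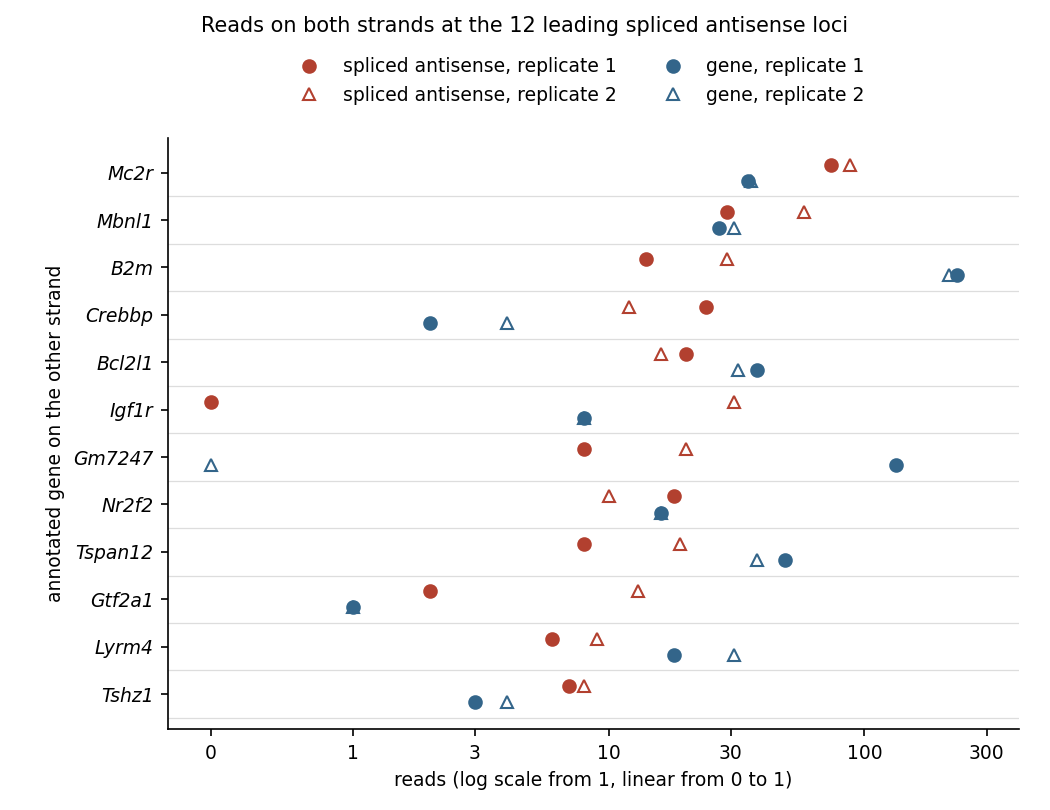
Reads at the 12 loci with the most spliced antisense reads, on a scale that is logarithmic from 1 and linear from 0 to 1. Red marks are Antisense class reads and blue marks reads of the gene opposite over all classes, filled circles for replicate 1 and open triangles for replicate 2; at Mc2r the antisense marks stand at 74 and 88 and the gene marks at 35 and 36.

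Gm7247 was the leading locus without a mirrored intron. One structure (chr14:51475209-51483178, minus strand) had 0 Antisense class reads in replicate 1 and 20 in replicate 2, with another 16 reads in replicate 1 filed as NNC. A second structure (chr14:51475206-51483178) had 8 reads in replicate 1 and, as NNC, 4 in replicate 2. Gm7247 itself, within whose span both lie, had 133 reads in replicate 1 and none in replicate 2, where a count of 0 allows up to 6.48 CPM. None of those 133 reads was a full match to an annotated transcript or of the NIC or NNC class. The antisense chains thus stood in both libraries while the reads filed under the gene stood in 1. The structure opposite Colca2 (chr9:51273881-51277596, plus strand) was not mirrored either, with 15 Antisense class reads in replicate 1 and 13 Genomic reads in replicate 2, against 0 and 3 reads of Colca2. A structure within Vwf, the clotting factor gene of endothelial cells (chr6:125583365-125595905, minus strand), had 3 and 9 reads against 1 and 1, and shared no exon base with Vwf. Both were named after their values were seen.

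The other structures with the most exons in both libraries had few reads. Kifc3, a kinesin gene, had a structure of 5 exons (chr8:95200345-95205007, plus strand) with 1 read in each library and no mirrored intron. Ubl3, of a ubiquitin-like protein, had one of 4 exons with 1 and 2 reads, all mirrored, and 14 and 34 further reads on incomplete versions filed as ISM. Its first intron was crossed by 15 and 36 antisense reads, against 83 and 78 reads on the strand of Ubl3. Rab1a, a gene of transport between the endoplasmic reticulum and the Golgi, had one of 4 exons with 1 read in each library, also mirrored. The most exons of any structure, 21, stood in 2 structures of 1 read each beside AC149090.1 on an unplaced contig, and they were singled out after their values were seen. No locus had more than 2 structures, and 27 had 2, among which those at Mc2r, Gm7247 and Tmem266 had the most reads. Tmem266 had 6 antisense reads in replicate 2 and 1 in replicate 1, on 2 unmirrored structures, and 0 reads of its own.

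Mirrored introns were set against the reads of the gene's own strand. Of the 270, 221 (81.9%) were also crossed by reads on the gene's strand, with a median of 13 reads over all 270, and 62 (23.0%) had more reads on the antisense strand. Among the 20 mirrored introns of structures with 10 reads or more, 17 had more reads on the antisense strand. The 7 with none on the gene's strand were all at Crebbp and Gtf2a1. These structures were picked by their antisense reads, which favours an antisense excess, and introns of 1 structure share reads. The highest gene-strand count among mirrored introns was 1339, in Sparc, an extracellular matrix gene, beside 3 antisense reads. Of all 126207 annotated introns crossed by reads of their own strand, those 221 were 0.175%. Over all annotated introns crossed on either strand, Antisense class passages were 2.02 per 10000 gene-strand passages in replicate 1 and 2.42 in replicate 2. Without the 20 most mirrored introns, left out after seeing the data, they were 0.611 in replicate 1 and 0.606 in replicate 2. Antisense reads of other classes, which the intron counts above include, are left out of these rates. The rate was 10.1 per 10000 in introns with under 10 gene-strand reads, 3.44 from 10 reads, 0.421 from 100 and 0.0361 from 1000 upward, where the grouping count is also the denominator. A first intron of an annotated transcript made up 44.1% of mirrored introns and 24.7% of all annotated introns with reads, and a last intron 37.0% and 27.9%.

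**Figure D4:**
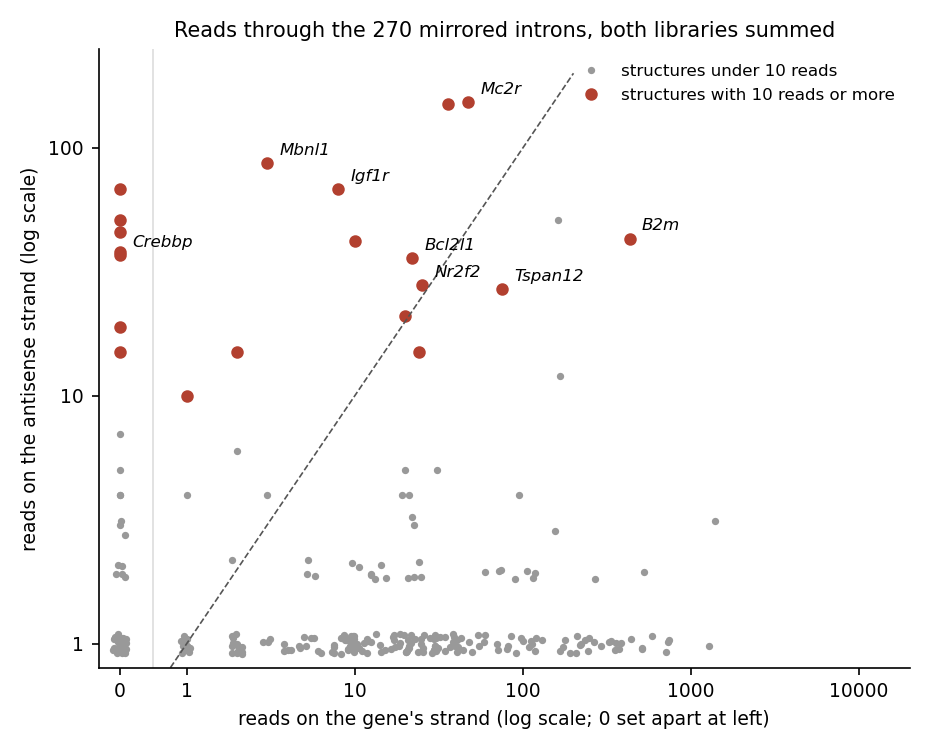
Reads through each of the 270 mirrored introns on the antisense strand (vertical) and on the gene's strand (horizontal), summed over both libraries on log scales, with 0 set apart at the left and points up to 3 antisense reads spread by a small random shift. Red points belong to structures with 10 reads or more, and points above the dashed line had more antisense than gene-strand reads; Mc2r reached 153 antisense reads against 47, while 200 introns had 1 antisense read.

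The ends of the models also differed between the kinds. The antisense 3′ end lay at an annotated start of any gene on the other strand, to the base, in 92 of 199 mirrored structures (46.2%) and in 27 of 444 unmirrored ones (6.08%). This was so for 61 of 156 mirrored structures with 1 read (39.1%), 18 of 30 with 2 to 9 reads and all 13 with 10 reads or more, each of which held a first intron of a transcript of its gene. The antisense 5′ end lay at an annotated end in 33.2% of mirrored structures and 5.63% of unmirrored ones. A deposited model gives 1 start and 1 end for all its reads, and whether the program placed these ends at annotated positions was not tested. Of the mirrored structures 97.5% lay wholly inside the span of the gene, and of the unmirrored ones 63.5%.

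The genome bases after the 3′ end were read where annotation covered them. At least 12 of the next 20 bases were A after 14 of 95 mirrored structures (14.7%), after 9 of 74 unmirrored ones (12.2%) and after 38.2% of 4579 single-exon antisense models. The leading structures ranged widely, as the 20 bases after 3 of them show, on the antisense strand with each A in capitals.
Mbnl1 antisense, after its end: AggAAAAAAcAAAAAgAAAA
Gtf2a1 antisense, after its end: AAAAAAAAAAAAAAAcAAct
B2m antisense, after its end: gAgAgccAgccAgggcgcgc
Mbnl1 had 16 A, Gtf2a1 17 and B2m 4. Bases are from GENCODE M21 transcripts, and for B2m from a RefSeq promoter window.

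Unmirrored structures were the more numerous group. Their highest count was 20 reads, against 150 among the mirrored. A RefSeq gene start on the same strand lay within 500 bases of the structure's start for 51 of 444 (11.5%, 8.85 to 14.8%) and for 2 of 199 mirrored structures (1.01%, 0.276 to 3.59%). Most of these RefSeq genes carry only a Gm number, among them Gm34231 at a structure within the lincRNA Gm12514 (1 read in replicate 1 and 3 in replicate 2). Ggnbp2os, a named antisense gene of Ggnbp2, had its start 207 bases away from a structure with 0 and 2 reads. The starts were a median of 88 bases apart. Another 39 distinct introns lay within 10 bases of an annotated intron of the opposite strand without repeating it, 37 of them with both ends shifted the same way. Of the 10 of these with readable ends 5 read GT and AG.

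Some readable introns lay in repeated sequence. The structure opposite Neat1, the noncoding RNA that builds paraspeckles, had 6 reads in replicate 1 and 2 in replicate 2 (chr19:5836919-5841862, mm10, plus strand). Its intron of 59 bases lies inside an annotated Neat1 exon and is shown whole with 10 exon bases on each side, GT and AG in capitals. The bases are from a GENCODE M21 transcript.
Neat1 antisense intron: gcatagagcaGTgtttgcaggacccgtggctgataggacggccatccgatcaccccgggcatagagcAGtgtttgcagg
Within 30 bases of either end of this intron, a run of 51 bases occurred in 2 copies 58 bases apart. A run of 10 bases or more was shared by the 20-base windows around both intron ends in 3 of 38 readable introns that were not mirrored, those at Neat1, St13 and D3Ertd254e, and in 0 of 24 readable mirrored ones (0 to 13.8%). It was shared in 1.76% of 4029 NNC introns and 1.33% of 678 NIC introns without annotation.

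Nearly every structure had a gene on the other strand, as the class requires. The span of 653 of 656 overlapped one, and exons overlapped in 505 (77.0%). Each structure was put in the first position class that held. First came an own start within 1000 bases, on either side, of an annotated start on the other strand, for 209 (31.9%, 28.4 to 35.5%). Whether these ran away from that start or across it was not separated. Next was an own end within 1000 bases of an annotated end on the other strand, for 76 (11.6%). Of the rest, 312 (47.6% of all 656) lay inside the gene and 59 lay elsewhere. The first class held 31.2% of mirrored structures (25.1 to 37.9%) and 32.9% of unmirrored ones (28.7 to 37.4%), with intervals that overlap. The genes opposite were protein coding for 602 of 653 structures (92.2%) and lincRNA genes for 21. They were protein coding for 98.0% of mirrored structures and 89.3% of unmirrored ones, and the median of their own reads was 24 opposite mirrored and 10 opposite unmirrored structures. Genes opposite a structure were 527 of the 15683 annotated genes with reads (3.36%). Antisense class reads were more than the gene's reads at 97 of 626 loci (15.5%), and 78 of these 626 loci had no read of the gene. Across the 626 loci, which share both libraries and their depth, log2(reads + 1) of antisense and gene had a Pearson r of 0.0523 and a Spearman rho of 0.0626. Only loci with an antisense read entered, and 547 of the 656 structures had 1 read. With so narrow a range on the antisense side, no relation between the levels can be read from these values.

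Lists of adrenal genes were set against the 573 of 15683 annotated genes with reads (3.65%) that the span of any structure overlapped from the other strand. Of 18 steroidogenesis genes 1 was overlapped, Mc2r (5.56%, 0.988 to 25.8%). Among the chromaffin genes, Hand1, which encodes a transcription factor, had 1 antisense read in replicate 1 and 0 in replicate 2. Of 28 transcription factor genes 2 were overlapped (7.14%, 1.98 to 22.7%). Meis2 had 1 antisense read in replicate 1, and the span of a structure with 1 read in each library reached Hoxc9, though its largest overlap was with another gene. Of 25 imprinted genes 1 was, Kcnq1 with 1 antisense read in replicate 2 (0.710 to 19.5%). None of 16 pancreas acinar and liver genes was (0 to 19.4%). Each of these intervals holds the share over all genes with reads. The imprinted and transcription factor lists also hold genes without a read, such as H19 and Sox6, so the sets are not alike. The 5 cortex markers summed to 26833 reads in replicate 1 and 22060 in replicate 2, and the 5 chromaffin markers to 4741 and 7133. The 5 acinar markers summed to 0 and 2066 and the 4 liver markers to 1 and 186; their part in the difference between the libraries was not tested.

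The libraries were then compared with each other, with Fisher's exact test, two-sided, of each structure's reads in every class against all other endogenous reads. The test was run over all 8225 matched models with at least 10 reads, with Benjamini-Hochberg adjustment, and calls needed an adjusted p under 0.05 with a 2-fold change after adding 1 CPM. It compares these 2 libraries and not conditions. None of the 20 spliced antisense structures tested was called, where 283 of all 8225 models were (3.44%), 117 of them with more in replicate 2 (1.42%) and 166 with less there (2.02%). With TMM totals 1 of the 20 structures was called, where 258 of all 8225 models were. With DESeq2 size factors none was, where 249 of all models were. In the main run 4 of the 20 had an unadjusted p under 0.05 in Fisher's exact test. The structure at Mbnl1, with 58 reads in replicate 2 and 29 in replicate 1, came closest (log2 ratio 0.96, ratio 1.95 with an exact interval of 1.23 to 3.17, adjusted p = 0.0439 by Fisher's exact test), short of 2-fold. At Gtf2a1, 13 reads in replicate 2 and 2 in replicate 1 gave a ratio of 6.35 (1.44 to 58.0, adjusted p = 0.0939 by Fisher's exact test). B2m, with 29 reads in replicate 2 and 14 in replicate 1, and Crebbp, with 12 and 24 in the same order, had adjusted p of 0.239 and 0.286 in the same exact test. The 20 structures had a median log2 ratio of 0.21, against -0.10 over all models tested. Restricted to Antisense class reads, a choice made after seeing the data, 4 of 17 structures were called, at Igf1r, Gm7247, Colca2 and the 2-exon structure of Mc2r, each with its chain filed under another class in 1 library. The share called over all models with this restriction was not recorded.

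The spike-in RNAs, made as single strands and almost all listed with 1 exon, gave a measure of strand assignment in these tables. The Antisense class held 52 of 5564 spike-in reads in replicate 1 (0.935%, 0.713 to 1.22%) and 108 of 15900 in replicate 2 (0.679%, 0.563 to 0.819%). None of these models was spliced. Only 0 spike-in models in replicate 1 and 1 in replicate 2 had more than 1 exon, so strand assignment of spliced reads was not measured.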

How the data were processed

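Total RNA of adrenal gland was sequenced as long reads in 2 libraries. The authors deposited whole read counts per transcript model and library, not normalized, with model positions, per the file headers and the deposited text notes on mm10 and GENCODE M21. The columns are those of TALON. The aligner, versions and read filters were not given in the sources used here. In replicate order, 458001 and 479002 reads stood in the tables. Spike-in models were left out by chromosome name, leaving 452437 and 463102 reads. A count of 0 allows up to 6.63 and 6.48 CPM (3 counts).

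Members and lists were chosen with earlier results of these data known. A locus joins overlapping structures of 1 strand, and the gene opposite is the one with the largest overlap. Named were the 12 loci with the most reads, the 6 structures with the most exons in both libraries, any called structure, any locus opposite a listed gene with at least 3 reads, and the 3 loci with the most structures, by reads where structures tied and by alphabetical order of chromosome names where reads tied. A result on the chromaffin list is not reported here. Shares carry Wilson 95% intervals. Fisher's exact test (scipy 1.17.1, Python 3.11.15) was tested on simulated data. edgeR 4.0.16 supplied TMM factors (1.03 and 0.968) and DESeq2 1.42.0 size factors, for alternatives only. The replicates show the spread between these libraries, which may be technical.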

Additional observations from a re-analysis of the deposited data

How the results depend on the processing

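No paired analysis was possible because the study has 1 group. Requiring at least 2 reads left 109 structures of 656, raised the share in both libraries to 48.6% and the mirrored share of introns to 41.4%, lowered the spliced share of Antisense reads to 2.19%, and put 100% opposite a gene. Requiring at least 3 exons gave 181 structures, 4.97% in both libraries and 1.11% of Antisense reads. Exon overlap in place of span gave 77.0%. Starts near an opposite start were 22.1% within 500 bases, 43.6% within 2 kb and 28.5% with genes that had reads. Single libraries gave 327 to 382 structures, 26.4 to 34.0% mirrored introns and 30.9 to 31.9% such starts. They gave 30.6 to 68.9% of readable introns with GT and AG ends, against 52.1% over both. Without replicate 2 that share is below by over 1.5 times. It depends in part on the mirrored share of readable introns, 47.2% in replicate 1 and 24.4% in replicate 2. With no read minimum 180 models were called in place of 283. With TMM totals 1 spliced antisense structure was called, at Mbnl1 (log2 ratio 1.05), among 258 of all models. With 2 alternatives chosen after seeing the data, 12.2% of structures recurred when the chain could be in any class, and 4 structures were called on Antisense reads alone, where chains change class between libraries. The remaining alternatives stayed within the spread or within 1.5 times. Structures of 1 read cannot recur, so depth limits recurrence, and splice ends rest on 73 introns.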
